A study of Mus musculus with 8 samples.

Results

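The genes described here are the interferon response and MHC class I genes of mouse embryonic stem (ES) cells, measured by RNA sequencing. They were taken from a list of 50 gene symbols chosen for their function, with earlier results of these data known. Of these, 49 (Ifi27 was missing) stood in the authors' deposited table of 23284 gene entries. The cells belonged to 2 clonal lines of a strain labelled mixed. Clone 6, here the transgenic line, carries a Ctcfl transgene that doxycycline induces, and clone 7, the non-transgenic line, carries none. Ctcfl (BORIS) is a relative of the insulator protein Ctcf that is normally made in germ cells. The 4 groups were the transgenic line with doxycycline, the transgenic line without it, the non-transgenic line with doxycycline and the non-transgenic line without it. All cells had been kept on mouse embryonic fibroblast feeders and then spent 48 h off the feeders, either in 2 µg/ml doxycycline or in medium without the drug, and no group received an interferon or a virus, as far as the labels say. Each group holds 2 libraries, 1 from each of 2 experiments, and p-values measure no more than the spread between these libraries. Each line is a single clone, so the transgene and any other difference between the clones cannot be told apart when the lines are compared.

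Interferons are secreted proteins that signal through the paired receptors Ifnar1 and Ifnar2 (type I) or Ifngr1 and Ifngr2 (type II). Type I signals act through a complex with Stat2 and Irf9 that binds interferon-stimulated response elements, type II signals act through gamma-activated sites, and Irf1 extends both programmes. Their targets restrict viruses and load peptides onto MHC class I molecules, and mouse ES cells are known for a weak interferon response and little class I protein at the cell surface.

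Promoters of 6 members are shown because they carry the genes to which the results return: Gbp2 and Tapbp were called higher in transgenic cells, Cxcl10 had the largest ratio between the lines, Isg15 and Ifit1 hold several response elements at a low level, and B2m holds 1 at a high level. Each run is 300 bases of RefSeq sequence (build GRCm38.p6), from 250 before to 50 after the gene start, written 5′ to 3′ on the gene's strand. Capitals mark the response element core GAAANNGAAA in either orientation, and overlapping matches run together.
Gbp2 (chr3:142620413-142620712, plus strand): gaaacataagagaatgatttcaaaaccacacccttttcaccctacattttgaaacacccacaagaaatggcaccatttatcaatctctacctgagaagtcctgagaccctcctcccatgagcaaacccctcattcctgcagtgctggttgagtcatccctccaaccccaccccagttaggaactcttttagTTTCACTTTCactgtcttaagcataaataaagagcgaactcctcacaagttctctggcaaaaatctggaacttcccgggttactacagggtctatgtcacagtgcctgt
Tapbp (chr17:33919228-33919527, plus strand): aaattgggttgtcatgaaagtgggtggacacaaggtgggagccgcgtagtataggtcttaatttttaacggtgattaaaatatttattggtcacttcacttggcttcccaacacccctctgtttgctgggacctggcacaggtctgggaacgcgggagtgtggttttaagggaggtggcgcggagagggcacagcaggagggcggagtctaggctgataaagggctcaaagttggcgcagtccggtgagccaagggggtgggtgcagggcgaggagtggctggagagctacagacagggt
Cxcl10 (chr5:92348840-92349139, minus strand): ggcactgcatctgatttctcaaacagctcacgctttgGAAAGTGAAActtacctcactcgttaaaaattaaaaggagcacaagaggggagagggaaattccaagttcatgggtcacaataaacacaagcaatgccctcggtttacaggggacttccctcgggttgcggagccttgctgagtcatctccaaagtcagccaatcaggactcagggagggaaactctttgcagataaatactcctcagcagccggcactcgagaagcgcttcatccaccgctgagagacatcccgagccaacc
Isg15 (chr4:156200769-156201068, minus strand): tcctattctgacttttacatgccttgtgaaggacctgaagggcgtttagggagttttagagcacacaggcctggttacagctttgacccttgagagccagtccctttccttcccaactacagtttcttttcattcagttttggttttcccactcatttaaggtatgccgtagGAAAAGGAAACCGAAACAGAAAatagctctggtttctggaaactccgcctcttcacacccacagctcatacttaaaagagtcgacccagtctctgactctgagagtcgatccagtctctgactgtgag
Ifit1 (chr19:34640639-34640938, plus strand): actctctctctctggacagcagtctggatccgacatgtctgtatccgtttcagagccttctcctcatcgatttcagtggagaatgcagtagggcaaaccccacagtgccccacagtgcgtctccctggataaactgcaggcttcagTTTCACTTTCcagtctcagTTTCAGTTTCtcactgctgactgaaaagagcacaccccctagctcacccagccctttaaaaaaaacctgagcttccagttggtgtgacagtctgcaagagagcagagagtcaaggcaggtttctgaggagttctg
B2m (chr2:122147437-122147736, plus strand): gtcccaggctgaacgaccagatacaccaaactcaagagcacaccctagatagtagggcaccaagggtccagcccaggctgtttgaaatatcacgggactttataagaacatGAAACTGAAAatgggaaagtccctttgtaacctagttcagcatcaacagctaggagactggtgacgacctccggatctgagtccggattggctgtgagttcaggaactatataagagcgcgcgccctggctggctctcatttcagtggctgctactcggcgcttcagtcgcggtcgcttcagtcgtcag

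RefSeq promoters were matched by symbol to 41 of the 49 members. Tap2, Usp18, Dhx58, Mx1, Mx2, Parp14, H2-Bl and Nlrc5 had no entry in the promoter table. The response element core was present in 16 of the 41 members (39.0%), against 3.99% of 27025 genes with a promoter in the same table. The gamma-activated site TTCNNNGAA, which reads the same in both orientations, was present in 10 of the 41 (24.4%), against 9.55% of all genes. Counted per promoter rather than per gene, the shares over all 32851 promoters of this length were 3.44% for the response element and 8.30% for the gamma-activated site, and over the members' 50 promoters they were 32% and 20%. Antiviral effectors held the response element most often, in 11 of 19 genes, and the 4 receptors held none. In the sequences above, the match of Gbp2 begins 59 bases before the gene start, that of B2m 139 bases before and that of Cxcl10 213 bases before. Isg15 has 3 overlapping matches and Ifit1 has 2 separate ones, while the Tapbp window holds neither motif. Having the motif did not go with a higher level: the mean over the 4 groups had a median of 3.26 FPKM in the 16 genes with a response element (0.0612 to 311) and 4.55 FPKM in the 25 without one (0.0456 to 212). A match is a description of these letters and does not show that a factor binds there.

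The authors deposited 1 FPKM value (fragments per kilobase, scaled by the number of fragments mapped) per gene and group. FPKM is scaled by length, so levels of different genes can be set side by side, but no value per library was given, and none of the group values below has an SD. The summed FPKM was 729893, 737443, 721623 and 717813 in transgenic cells with and without doxycycline and in non-transgenic cells with and without it, and 12092, 12073, 12033 and 12053 genes reached 1 FPKM in the same groups. Read depth is unknown. The transgene's own gene, Ctcfl, stood at 0.995 and 0.403 FPKM in transgenic cells with and without doxycycline, and at 0.498 and 0.513 FPKM in non-transgenic cells. Its 2.47-fold ratio with doxycycline in transgenic cells had p = 0.0062 and q = 0.296 in the authors' deposited table, so Ctcfl itself was not called. Between the lines with doxycycline its ratio was 2.00-fold (p = 0.0614 in the authors' deposited table). The 8 listed ES cell markers were present in every group at very different levels. Pou5f1 lay between 1011 and 1116 FPKM, Zfp42 between 18.9 and 88.3 FPKM and Klf4 between 9.17 and 19.9 FPKM.

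Levels differed far more between members than between groups, from 0.00984 FPKM (Mx1) to 345 FPKM (Ifitm2). Of the 49 members, 35 had a mean of 1 FPKM or more over the 4 groups, 15 had 10 or more and 7 had 50 or more. The other 14 were under 1 FPKM, and no member was listed at 0 in any group. Of the 35 members at 1 FPKM or more, 21 varied by less than 1.5-fold between their highest and lowest group. The authors' test was made for 34 members in all 4 comparisons and for 11, all low, in none.

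**Figure D1:**
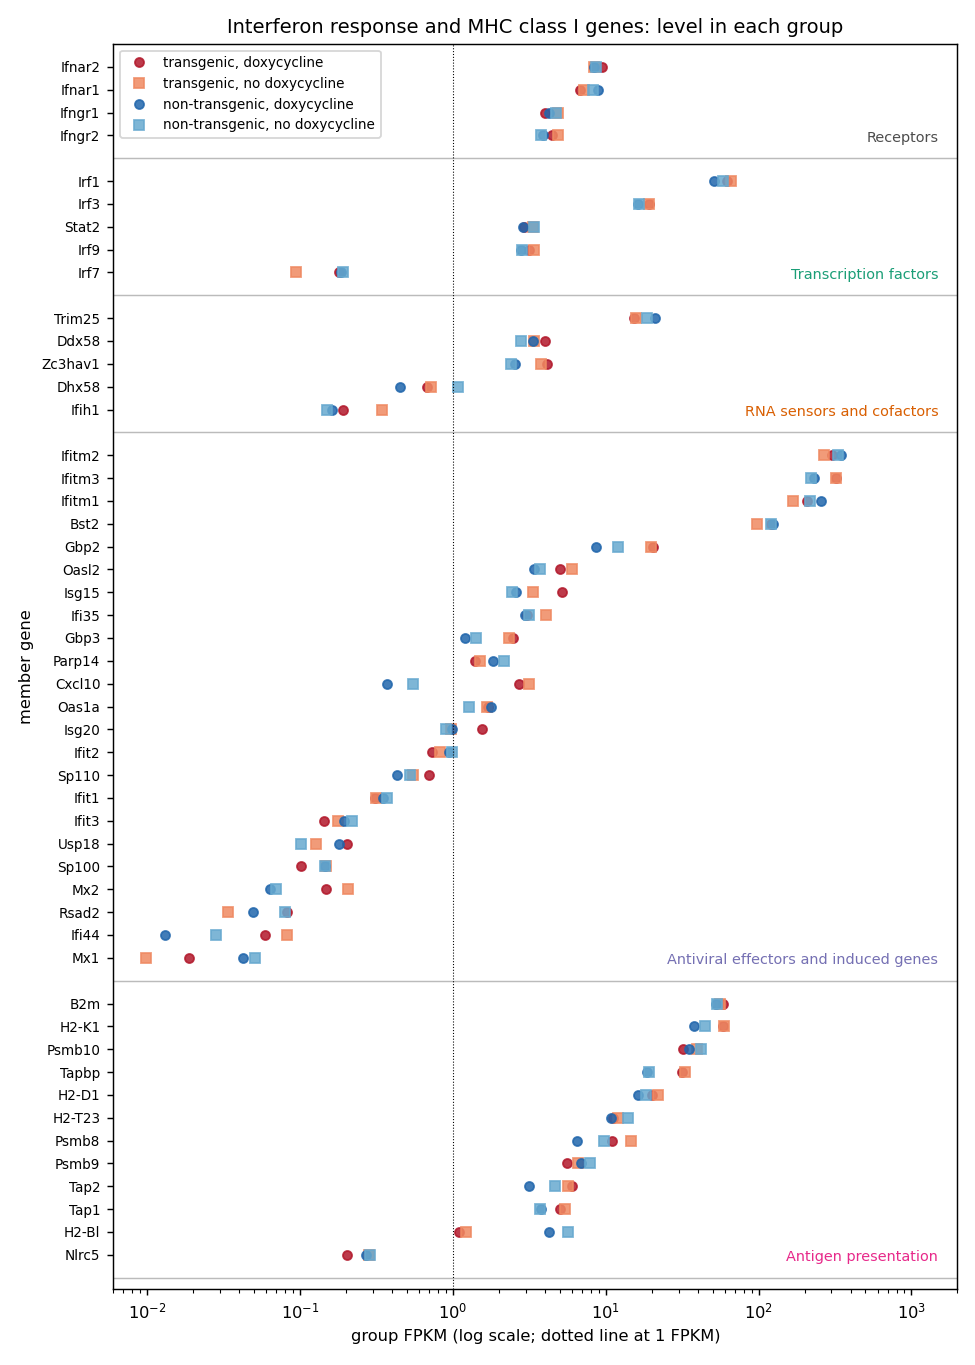
Deposited FPKM (horizontal axis, log scale) of the 49 members in each of the 4 groups, arranged by role and, within a role, by mean level. Each point is 1 group value that combines 2 libraries, so no error is drawn; the Ifitm genes and Bst2 lie near or above 100 FPKM, and the Ifit and Mx genes lie left of the dotted line at 1 FPKM.

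All 4 receptor subunits were present at similar, modest levels. Ifnar2, a subunit of the type I receptor, stood at 9.44 and 8.40 FPKM with and without doxycycline in transgenic cells, and at 8.41 and 8.60 FPKM in non-transgenic cells. Its partner Ifnar1 stood at 6.81 and 7.26 FPKM in transgenic cells and at 8.95 and 8.32 FPKM in non-transgenic cells. Ifngr1, which binds interferon gamma, stood at 3.99 and 4.89 FPKM in transgenic cells and at 4.27 and 4.71 FPKM in non-transgenic cells, and Ifngr2 lay between 3.80 and 4.87 FPKM over the groups. No receptor passed the authors' test in any of the 4 comparisons, and the smallest p among them in the authors' deposited table was 0.0807, for Ifnar1 between the lines with doxycycline.

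Among the transcription factors, Irf1 stood far above the rest. It stood at 62.5 and 65.8 FPKM with and without doxycycline in transgenic cells, and at 50.9 and 58.7 FPKM in non-transgenic cells. Irf3, which switches on interferon genes when RNA or DNA is sensed, stood at 19.2 FPKM in both transgenic groups and at 16.2 and 16.6 FPKM in non-transgenic cells. Stat2 stood at 2.91 and 3.34 FPKM in transgenic cells and at 2.89 and 3.39 FPKM in non-transgenic cells, and Irf9 lay between 2.80 and 3.40 FPKM. Irf7, which amplifies interferon production after a first signal, was close to the bottom of the scale, between 0.0945 and 0.190 FPKM. The interferon genes themselves were all but silent: 7 of the 8 in the table (of 10 listed) were at 0 in every group, and the summed level of all 8 reached 0.0306 FPKM in non-transgenic cells with doxycycline and 0 in the other groups.

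Of the RNA sensors and their cofactors, Trim25, a ubiquitin ligase that acts on the sensor Ddx58, was the most abundant, at 15.4 and 15.8 FPKM with and without doxycycline in transgenic cells and at 20.9 and 18.5 FPKM in non-transgenic cells. Ddx58, the RNA helicase also known as RIG-I, stood at 4.02 and 3.39 FPKM in transgenic cells and at 3.33 and 2.78 FPKM in non-transgenic cells. Zc3hav1, a zinc finger protein that binds viral RNA, stood at 4.13 and 3.76 FPKM in transgenic cells and at 2.54 and 2.39 FPKM in non-transgenic cells. Both transgenic values of Zc3hav1 exceeded both non-transgenic ones. The related helicases Dhx58 (0.450 to 1.09 FPKM) and Ifih1 (0.150 to 0.344 FPKM) were low in every group.

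The antiviral effectors split into a few very abundant genes and many that were barely detected. Ifitm1, Ifitm2 and Ifitm3, small membrane proteins that block virus entry, were the highest of all members. Ifitm3 stood at 321 and 323 FPKM with and without doxycycline in transgenic cells, and at 231 and 221 FPKM in non-transgenic cells. Its relatives Ifitm1 and Ifitm2 had the opposite order between the lines, and none of the 3 was called. Ifitm2 stood at 302 and 268 FPKM in transgenic cells and at 345 and 329 FPKM in non-transgenic cells. Ifitm1 stood at 207 and 167 FPKM in transgenic cells and at 257 and 217 FPKM in non-transgenic cells. Of the 75-base stretches of Ifitm2 transcripts, 42.0% also occur in transcripts of other genes, so its level is uncertain, whereas under 1% of those of Ifitm1 (0.582%) and Ifitm3 (0.662%) do. Bst2, which tethers budding viruses to the cell, lay between 97.6 and 125 FPKM.

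Below these stood Gbp2, a guanylate-binding GTPase, at 20.5 and 19.9 FPKM with and without doxycycline in transgenic cells and at 8.70 and 12.1 FPKM in non-transgenic cells. Oasl2, a protein related to the RNA-activated oligoadenylate synthetases, stood at 5.06 and 6.03 FPKM in transgenic cells and at 3.40 and 3.71 FPKM in non-transgenic cells. Isg15, a ubiquitin-like protein, stood at 5.18 and 3.35 FPKM in transgenic cells and at 2.59 and 2.44 FPKM in non-transgenic cells. For each of these genes both transgenic values were above both non-transgenic ones, though only Gbp2 was called.

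Ifi35 stood at 3.05 and 4.09 FPKM with and without doxycycline in transgenic cells and at 2.97 and 3.17 FPKM in non-transgenic cells. Isg20, an RNA exonuclease, stood at 1.54 and 0.972 FPKM in transgenic cells and at 0.987 and 0.898 FPKM in non-transgenic cells. Cxcl10, a chemokine that attracts T cells, stood at 2.70 and 3.17 FPKM in transgenic cells and at 0.369 and 0.552 FPKM in non-transgenic cells, the largest ratio between the lines among members with a mean of 1 FPKM or more. Gbp3 (1.21 to 2.48 FPKM), Parp14 (1.39 to 2.16 FPKM) and Oas1a (1.27 to 1.78 FPKM, with 47.6% of its 75-base stretches shared, all with Oas1g) were the other effectors at 1 FPKM or more.

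Many of the genes in common use as markers of an active type I response were among the lowest. Ifit1 (0.311 to 0.374 FPKM), Ifit2 (0.726 to 0.986 FPKM) and Ifit3 (0.144 to 0.219 FPKM), which bind viral RNA, were all under 1 FPKM in every group, although the Ifit1 promoter printed above holds 2 response elements. Rsad2, an enzyme also called viperin, lay between 0.0341 and 0.0820 FPKM, Ifi44 between 0.0131 and 0.0817 FPKM, and Usp18, which removes Isg15 from proteins, between 0.101 and 0.203 FPKM. The Mx genes, listed by RefSeq as transcribed pseudogenes in the reference strain, were at 0.00984 to 0.0510 FPKM (Mx1) and 0.0640 to 0.207 FPKM (Mx2). Sp100 (0.101 to 0.148 FPKM) and Sp110 (0.433 to 0.701 FPKM, with 30.4% of its 75-base stretches shared), both proteins of nuclear bodies, were low as well.

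The antigen presentation genes, by contrast, were nearly all well expressed: 11 of 12 reached a mean of 1 FPKM. B2m, the light chain of every class I molecule, stood at 58.7 and 56.2 FPKM with and without doxycycline in transgenic cells, and at 52.4 and 53.6 FPKM in non-transgenic cells. H2-K1, a classical class I heavy chain, stood at 58.2 and 59.6 FPKM in transgenic cells and at 37.9 and 44.3 FPKM in non-transgenic cells. H2-D1, the other classical heavy chain measured, lay between 16.2 and 22.1 FPKM. H2-T23, the non-classical heavy chain of Qa-1, stood at 11.2 and 12.1 FPKM in transgenic cells and at 10.9 and 14.0 FPKM in non-transgenic cells. The deposited loci of B2m (with Patl2 and Trim69) and H2-T23 (with A930015D03Rik and H2-T24) also span other genes, which makes their levels uncertain.

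The immunoproteasome subunits, which cut proteins into peptides for class I molecules, were led by Psmb10, at 31.9 and 39.5 FPKM with and without doxycycline in transgenic cells and at 34.9 and 41.8 FPKM in non-transgenic cells. Psmb8 stood at 11.0 and 14.6 FPKM in transgenic cells and at 6.50 and 9.76 FPKM in non-transgenic cells, and Psmb9 lay between 5.61 and 7.92 FPKM. For Psmb8, Psmb9 and Psmb10, each line had its lower value with doxycycline.

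Tapbp (tapasin), which holds empty class I molecules at the peptide transporter, stood at 31.7 and 32.8 FPKM with and without doxycycline in transgenic cells and at 18.5 and 19.2 FPKM in non-transgenic cells. The transporter subunit Tap2 stood at 6.05 and 5.68 FPKM in transgenic cells and at 3.16 and 4.64 FPKM in non-transgenic cells, and Tap1 lay between 3.74 and 5.42 FPKM. H2-Bl, a class I gene that RefSeq lists as a transcribed pseudogene, stood at 1.09 and 1.22 FPKM in transgenic cells, far below the 4.26 and 5.68 FPKM in non-transgenic cells. Nlrc5, the transactivator of class I genes, lay between 0.203 and 0.286 FPKM.

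**Figure D2:**
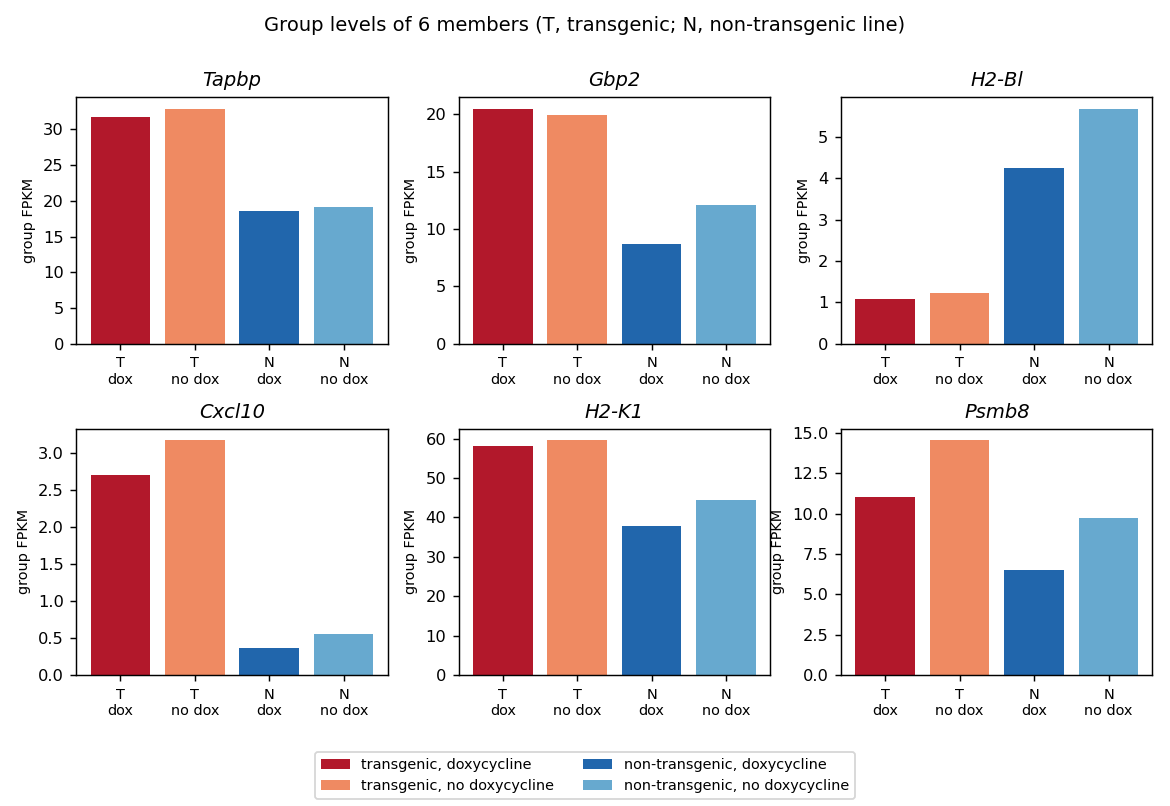
Deposited FPKM (vertical axis, from 0) of 6 members in transgenic (T) and non-transgenic (N) cells, with doxycycline (dox) and without it (no dox). Bars are group values that combine 2 libraries, so no error bar is drawn; in 5 panels both transgenic bars stand above both non-transgenic bars, and for H2-Bl both stand below.

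The lines were compared within each culture condition to ask which members differ between clones with and without the transgene, and 3 members were called (authors' status that a test was made, and deposited q under 0.05). Without doxycycline, Tapbp was higher and H2-Bl lower in transgenic cells, and with doxycycline Gbp2 was higher. That is 2 of 37 members tested without doxycycline, where 1.37% of 13047 genes were called (0.797% higher and 0.575% lower in transgenic cells), and 1 of 37 with doxycycline, where 1.52% of 13064 genes were called (0.857% higher and 0.666% lower), so the members' shares rest on 2 genes and 1 gene. These 2 comparisons share no library. Standard errors below are the log2 ratio divided by the deposited test statistic, and the deposited p does not follow from that ratio by a normal distribution.

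Tapbp (chr17:33919478-33929290 in GRCm38) was 1.71-fold higher in transgenic cells without doxycycline, a log2 ratio of 0.78 (SE 0.33), with p = 0.00015 and q = 0.0200 in the authors' deposited table. With doxycycline its ratio was again 1.71-fold (log2 ratio 0.78, SE 0.32), but p = 0.00135 and q = 0.104 in the authors' deposited table, so it was not called there. Of the 75-base stretches of Tapbp transcripts, 18.6% occur in transcripts of other genes as well, mostly Gm19412.

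Gbp2 (chr3:142620663-142638008) was 2.35-fold higher in transgenic cells with doxycycline, a log2 ratio of 1.24 (SE 0.37), with p = 5e-05, the smallest in the table, and q = 0.00812 in the authors' deposited table. Without doxycycline the ratio was 1.65-fold (log2 ratio 0.72, SE 0.32), with p = 0.0028 and q = 0.170 in the authors' deposited table. The non-transgenic value was the one that differed most between culture conditions, 8.70 FPKM in doxycycline against 12.1 FPKM in its absence.

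H2-Bl (chr17:36080110-36084249) was lower in transgenic cells without doxycycline, at 1.22 FPKM against 5.68 FPKM, a log2 ratio of -2.22 (SE 0.36), with p = 0.0005 and q = 0.04995 in the authors' deposited table, just under the threshold. With doxycycline the log2 ratio was -1.96 (SE 0.45), with p = 0.00185 and q = 0.129 in the authors' deposited table. H2-Bl shares 3.74% of its 75-base stretches with transcripts of other genes.

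Cxcl10, Ifitm3 and H2-K1 had higher values in transgenic cells and were not called. Cxcl10 was 5.74-fold higher in transgenic cells without doxycycline (p = 0.0031, q = 0.184 in the authors' deposited table) and 7.32-fold higher with it (p = 0.00945, q = 0.387 in the same table). Its deposited locus also spans Art3 and Cxcl11, and 2.47% of its 75-base stretches occur in Art3 transcripts. For Ifitm3 the ratio was 1.46-fold without doxycycline (p = 0.00705, q = 0.321) and 1.39-fold with it (p = 0.0292, q = 0.733) in the authors' deposited table. H2-K1 had 1.34-fold without doxycycline (p = 0.0506) and 1.54-fold with it (p = 0.0115, q = 0.438) in the authors' deposited table.

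Tap2 was 1.91-fold higher in transgenic cells with doxycycline (p = 0.0193, q = 0.590) and 1.22-fold without it (p = 0.378) in the authors' deposited table. Oasl2 was 1.62-fold higher without doxycycline (p = 0.0190, q = 0.585) and 1.49-fold with it (p = 0.0800) in the authors' deposited table. The ratio of Isg15 was 2.01-fold with doxycycline (p = 0.0961) and 1.37-fold without it (p = 0.416) in the authors' deposited table. None of these passed the threshold on q, in either culture condition.

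At an unadjusted deposited p under 0.05, 7 of 37 members (18.9%) passed without doxycycline, against 6.59% of all genes tested. They were Tapbp, Gbp2, Cxcl10, Ifitm3, Oasl2 and Zc3hav1, all higher in transgenic cells (3.57% of all genes passed in that direction), and H2-Bl, lower (3.02%). With doxycycline 10 of 37 (27.0%) passed, against 7.90% of all genes. Higher in transgenic cells (4.54% of all genes) were Gbp2, Tapbp, Cxcl10, H2-K1, Tap2, Ifitm3, Zc3hav1 and Gbp3, and lower (3.36%) were H2-Bl and Trim25. Members were not chosen at random, and the list was drawn up with earlier results of these data known. These shares are thus a description beside the share over all genes and no test of the members.

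On the log2(FPKM + 1) scale, which understates the difference of low genes, the members' median difference between the lines lay above that of all genes in both culture conditions. Over the 35 members with a mean of 1 FPKM or more, the median difference was 0.20 without doxycycline, with 23 above 0, and 0.16 with doxycycline, with 24 above 0. Over all 12156 genes kept by the same filter the medians were -0.0014 and -0.02, with 49.3% and 45.9% above 0. The antigen presentation genes had medians of 0.24 and 0.29, with 7 and 8 of 11 above 0, and the effectors 0.29 and 0.36, with 9 and 8 of 13 above 0. Without doxycycline the median depended on which members were counted: it was 0.0196 over the 18 members with a mean of 5 FPKM or more, 9 of them above 0, and 0.0551 over all 49 (0.0641 with doxycycline).

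The line differences of the members were alike in both culture conditions. Of the 35, 30 had the same sign in both line comparisons (85.7%, against 72.6% of all genes), 21 of them above 0 and 9 below. Across these 35 genes Pearson's r between the line differences without and with doxycycline was 0.92 and Spearman's rho 0.88, and across all 12156 genes they were 0.19 and 0.66. Pearson's r depends on extreme values. Without doxycycline the differences ran from -1.59 to 1.43 over members and from -10.1 to 12.7 over all genes. The values of r for the 2 sets are thus not directly comparable. The correlations are descriptions across genes, which share the libraries and the clones and are not independent replicates.

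**Figure D3:**
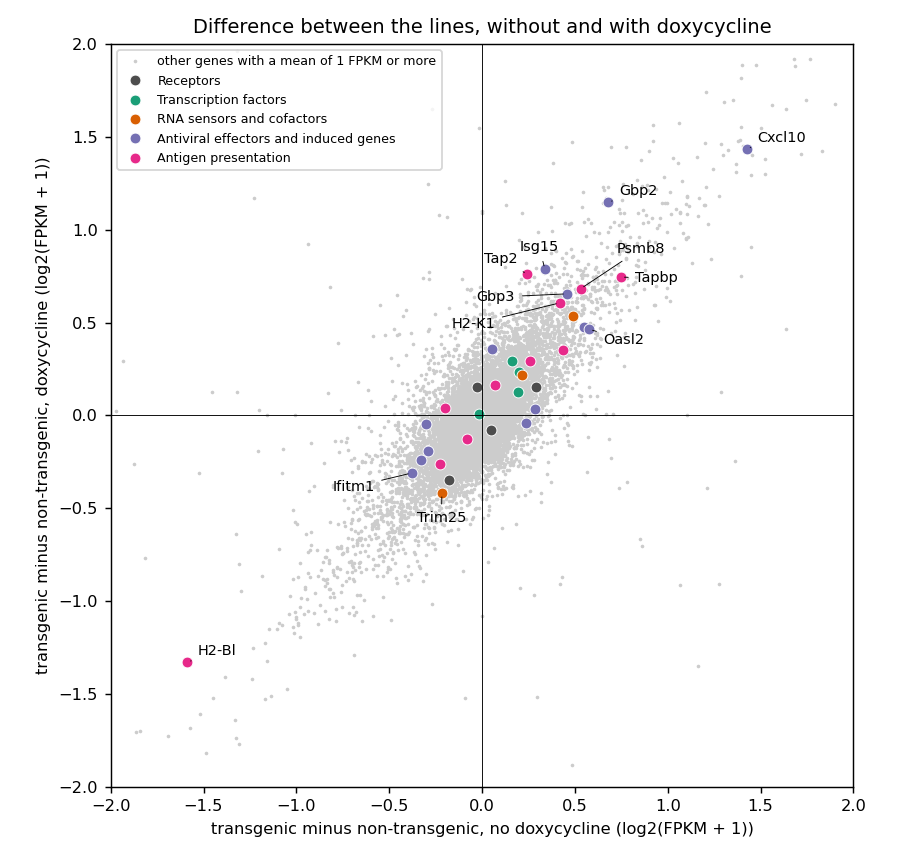
Difference of log2(FPKM + 1), transgenic minus non-transgenic line, without doxycycline (horizontal axis) and with it (vertical axis), for the 35 members with a mean of 1 FPKM or more (coloured by role) and all other such genes (grey). Axes end at 2 and leave out 134 genes; members run along the diagonal, with Cxcl10 and Gbp2 at the upper right and H2-Bl at the lower left.

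Markers of feeder fibroblasts had a higher summed level in transgenic cells. That sum, over 14 of 14 listed markers in the table, was 278 and 276 FPKM with and without doxycycline in transgenic cells and 216 and 220 FPKM in non-transgenic cells. None of the 14 stood at 0 in any group, none was called, and 10 and 9 of the 13 markers with a mean of 1 FPKM or more were above 0 between the lines without and with doxycycline. Col1a1, the most abundant, stood at 140 and 132 FPKM in transgenic cells and at 86.8 and 92.8 FPKM in non-transgenic cells. Without Col1a1 the other 13 markers summed to 138 and 144 FPKM in transgenic cells and to 129 and 127 FPKM in non-transgenic cells, and Col6a1 and Thy1 were below 0 in both line comparisons. Fibroblasts express many class I and interferon-induced genes, and the feeders' part in the line differences above was not tested. In these bulk samples, fewer cells of a type and less RNA per cell cannot be told apart.

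Leukocyte and macrophage markers had the opposite order between the lines. Of 12 listed symbols 11 were in the table, and the other, Adgre1, is a second name of Emr1, which was. These 11 summed to 80.2 and 78.1 FPKM in transgenic cells and 90.7 and 87.2 FPKM in non-transgenic cells. Most of that was Lyz2 (44.2 to 49.3 FPKM), and Ptprc, the pan-leukocyte marker, lay between 0.167 and 0.246 FPKM. The 5 endothelial markers summed to 2.21 and 2.45 FPKM in transgenic cells and to 3.79 and 3.51 FPKM in non-transgenic cells, with Emcn at 0 in both groups with doxycycline. Most of that was Tek, the only 1 with a mean of 1 FPKM or more. It stood at 1.30 and 1.36 FPKM in transgenic cells and at 2.50 FPKM in both non-transgenic groups, and was not called. The 8 ES cell markers differed between the lines as well, with 2 called higher (Nanog and Zfp42) and 1 lower (Sox2) in transgenic cells in each culture condition, and the part of this difference in the members' values was not tested.

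Culture with doxycycline was compared with culture without it within each line, and no member was called in either line. Only the transgenic line carries the inducible transgene, but the rise of Ctcfl in it was not called (q = 0.296 in the authors' deposited table). Induction is thus not established by these values, and its effect cannot be separated from that of the drug. In the transgenic line 0 of 37 members tested were called by the authors' test and 0 had an unadjusted p under 0.05, where 0.108% of 13003 genes were called and 1.08% had p under 0.05. In the non-transgenic line 0 of 36 were called and 0 had p under 0.05, where 0% of 12908 genes were called and 0.108% had p under 0.05. Adjusting within each comparison alone also gave 0 and 0. At such shares, a count of 0 among 37 genes is no result about the members.

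The largest differences with doxycycline in transgenic cells were those of Isg15, Psmb8, Isg20, Ifi35 and Ifitm1. Isg15 had 1.55 times the level with doxycycline (p = 0.176), and Isg20 1.59 times (p = 0.264), in the authors' deposited table. In the non-transgenic line the same ratios were 1.06-fold (p = 0.897) and 1.10-fold (p = 0.859) in the authors' deposited table. Ifitm1 had 1.24 times the level with doxycycline in transgenic cells (p = 0.132) and 1.18 times in non-transgenic cells (p = 0.262), and Ifi35 0.747 and 0.935 times (p = 0.273 and 0.843), in the authors' deposited table.

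In the non-transgenic line the 5 largest were Psmb8, Tap2, Gbp2, H2-Bl and H2-T23, and each had its lower value with doxycycline. Psmb8 had 0.758 times the level with doxycycline in transgenic cells (p = 0.182) and 0.666 times in non-transgenic cells (p = 0.144) in the authors' deposited table. Gbp2 had 1.03 times the level in transgenic cells (p = 0.854) and 0.721 times in non-transgenic cells (p = 0.0947) in the authors' deposited table. For Tap2 the ratios were 1.06 in transgenic cells (p = 0.770) and 0.681 in non-transgenic cells (p = 0.168) in the authors' deposited table. H2-Bl had 0.750 times the level with doxycycline in non-transgenic cells (p = 0.417) and H2-T23 0.777 times (p = 0.386) in the authors' deposited table, where H2-Bl was not tested in transgenic cells.

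**Figure D4:**
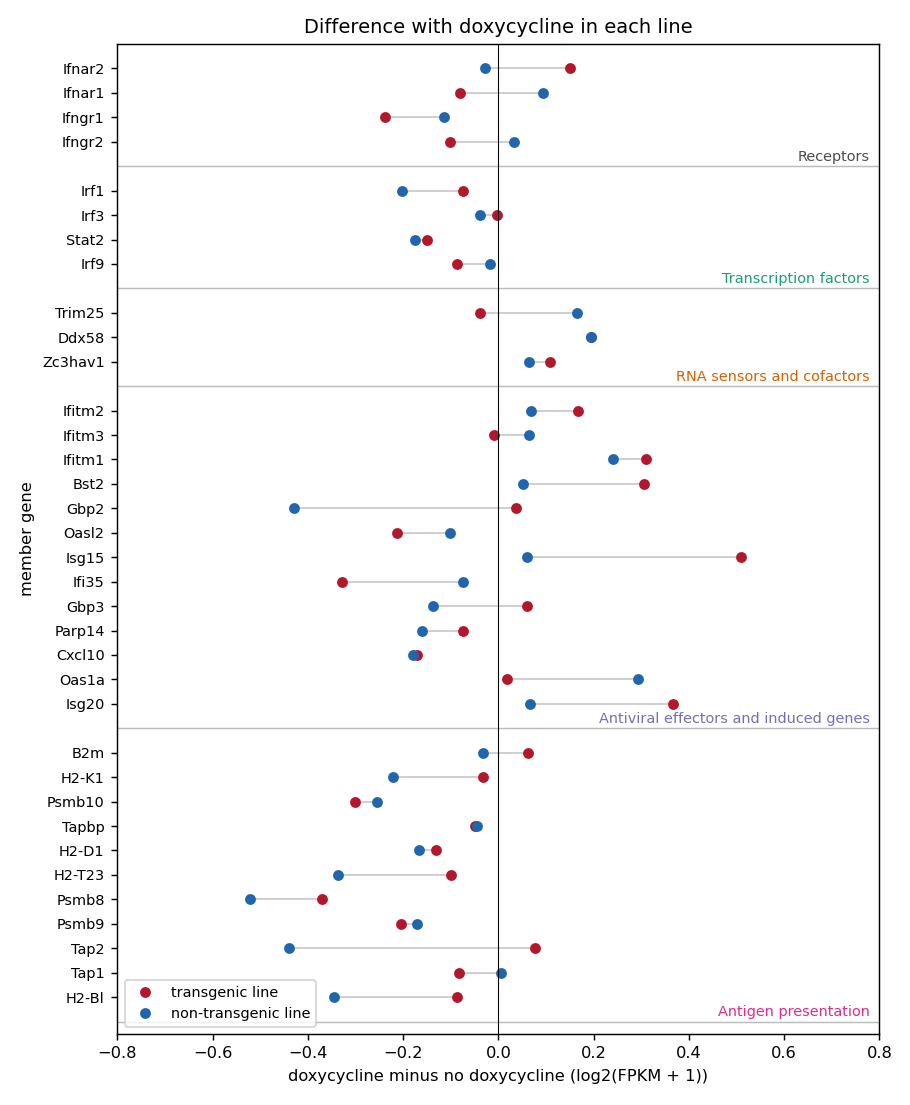
Difference of log2(FPKM + 1), doxycycline minus no doxycycline (horizontal axis), in transgenic (red) and non-transgenic (blue) cells for the 35 members with a mean of 1 FPKM or more, by role; a grey bar joins the values of 1 gene. No member passed the authors' test in either line; the antigen presentation genes lie mostly left of 0 in both lines.

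Members had small differences with doxycycline, with a median below 0 in both lines, which share no library, but not in every role. The median on the log2(FPKM + 1) scale was -0.05 in transgenic cells and -0.05 in non-transgenic cells, each with 13 of 35 above 0, and over all 12156 genes it was 0.0005 and 0.02, with 50.2% and 57.8% above 0. Of the 35, 17 were below 0 in both lines (48.6%, against 22.5% of all genes) and 8 above 0 in both (22.9%, against 30.9% of all genes). The antigen presentation genes made up 8 of these 17. Their median was -0.09 in transgenic cells, with 9 of 11 below 0, and -0.22 in non-transgenic cells, with 10 of 11 below 0. Most of them lie in the MHC region of chromosome 17, where 53 and 68 of the 91 other genes with a mean of 1 FPKM or more were below 0 as well in transgenic and non-transgenic cells. All 4 transcription factors kept by the filter were below 0 in both lines, although Irf3 in transgenic cells lay above 0 (0.0110) when the groups were rescaled to an equal sum of FPKM. The 13 antiviral effectors had medians above 0, at 0.04 in transgenic and 0.05 in non-transgenic cells, with 8 and 7 above 0. So did the 3 RNA sensors and cofactors, at 0.11 and 0.17, with 2 and 3 above 0. Across the 35 genes Pearson's r between the lines' differences was 0.50 and Spearman's rho 0.53, and across all 12156 genes they were -0.04 and 0.13. As in the line comparison, r depends on extreme values, and genes are not independent replicates. None of these differences passed the authors' test.

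Whether the lines responded to doxycycline by different amounts was tested for each gene by a two-sided normal approximation, with Benjamini-Hochberg adjustment over 12638 genes. It called 0 of 35 members, and 0 had an unadjusted p under 0.05, against 0.142% and 0.459% of all genes. So few genes passed, even unadjusted, that a count of 0 among 35 is no result about the members. The smallest p among members was 0.211, for Dhx58, whose response in transgenic cells exceeded that in non-transgenic cells by 1.19 on the log2 scale (SE 0.95, 95% interval -0.67 to 3.05). The difference was 0.64 (SE 0.52, interval -0.37 to 1.66) for Tap2 and 0.51 (SE 0.49, interval -0.44 to 1.47) for Gbp2. Intervals of this width include both no difference and a difference of more than 1 on the log2 scale. They are nominal, since the deposited p does not follow from these standard errors by a normal distribution.

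Other genes of the pathway were counted from a separate list of 119, of which 110 were in the table. This list, too, was drawn up with earlier results of these data known. In the transgenic line 1 of 78 tested was called with doxycycline (0.0923% of all genes were called higher) and 3 had an unadjusted p under 0.05 (1.08% of all genes). The gene called was Jak2, a kinase of the interferon gamma receptor. The other 2 with p under 0.05, Slfn5 and Herc6, were lower with doxycycline and not called. They had 0.530 and 0.584 times the level (p = 0.00405 and 0.039 in the authors' deposited table). Jak2 stood at 5.30 and 2.53 FPKM with and without doxycycline in transgenic cells and at 2.18 and 1.87 FPKM in non-transgenic cells, and its 2.09-fold rise in transgenic cells had q = 0.00812 in the authors' deposited table. In the non-transgenic line 0 of 76 were called, as were 0% of all genes, and 0 had an unadjusted p under 0.05, against 0.108% of all genes.

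Between the lines, 1 of 80 other pathway genes was called without doxycycline and 2 of 78 with it, all higher in transgenic cells, where 0.797% and 0.857% of all genes were called higher. At an unadjusted deposited p under 0.05, 5 of 80 passed without doxycycline and 7 of 78 with it, near the 6.59% and 7.90% of all genes. Irgm1, an interferon-inducible GTPase, stood at 20.4 and 21.97 FPKM with and without doxycycline in transgenic cells and at 9.04 and 9.98 FPKM in non-transgenic cells. Its ratio was 2.20-fold without doxycycline and 2.26-fold with it, with q = 0.00812 in both comparisons of the authors' deposited table. The second gene called with doxycycline was Jak2 (2.43-fold, q = 0.0200 in the authors' deposited table). Calr and Canx, chaperones that fold class I molecules, were the most abundant genes of the list: Calr stood at 350 and 374 FPKM in transgenic cells and at 331 and 326 FPKM in non-transgenic cells, and Canx lay between 160 and 180 FPKM. Ifi30, a lysosomal thiol reductase, lay between 52.4 and 65.2 FPKM. Samhd1 (23.01 to 26.2 FPKM) and Tbk1 (13.6 to 14.3 FPKM) led the sensing genes. Socs3, an inhibitor of cytokine receptors, stood at 32.6 and 29.5 FPKM in transgenic cells and at 50.3 and 48.7 FPKM in non-transgenic cells, and was not called. Of the 20 further antigen presentation genes with a mean of 1 FPKM or more, 17 and 15 were above 0 between the lines without and with doxycycline, with medians of 0.27 and 0.25 on the log2(FPKM + 1) scale, against 49.3% and 45.9% of all genes above 0. None of these 20 was called. In the other subgroups, 12 and 13 of 19 induced genes, 7 and 6 of 12 sensing genes and 6 and 5 of 11 signalling genes were above 0.

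Of the antigen presentation members, 9 lie in the MHC region of chromosome 17, and they did not differ between the lines as a block. From Tapbp to 100 kb past H2-Bl (chr17:33919478-36184249 in GRCm38), 100 genes had a mean of 1 FPKM or more. Their median difference between the lines was 0.02 without doxycycline, with 59 above 0, and 0.10 with it, with 69 above 0. At the Tapbp end, Tapbp, H2-K1, Tap1, Psmb8 and Tap2 were above 0 in both culture conditions, while Psmb9, whose gene start lies 226 bases from that of Tap1, was below 0 in both. Psmb9 stood at 5.61 and 6.62 FPKM with and without doxycycline in transgenic cells and at 6.92 and 7.92 FPKM in non-transgenic cells, and Tap1 stood at 5.06 and 5.42 FPKM in transgenic cells and at 3.75 and 3.74 FPKM in non-transgenic cells. Neither was called. H2-Bl, at the far end, was the lowest of the members in both conditions.

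**Figure D5:**
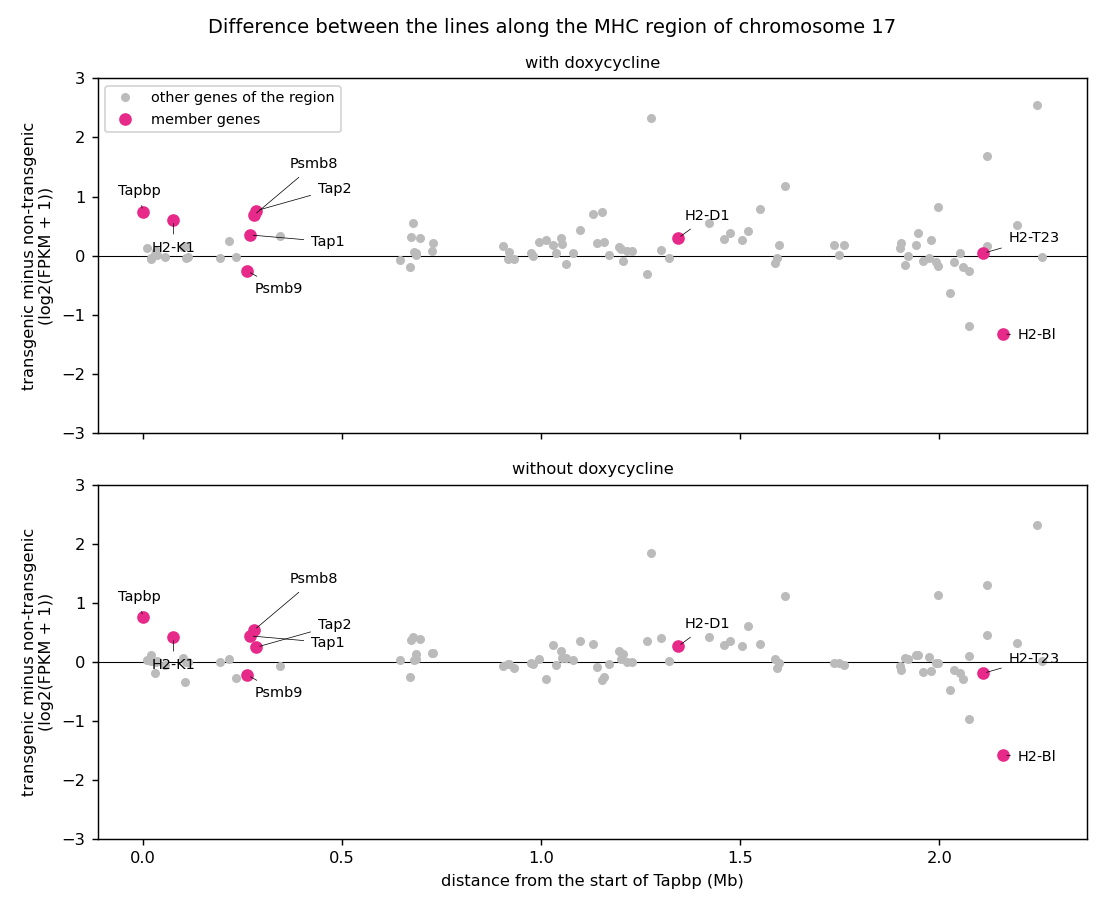
Difference of log2(FPKM + 1), transgenic minus non-transgenic line (vertical axis), against distance from the start of Tapbp in Mb (horizontal axis), with doxycycline (top) and without it (bottom), for genes of the MHC region with a mean of 1 FPKM or more. Member genes are pink and the 91 others grey, and 1 gene, Mir877, lies outside the range; Tapbp, H2-K1, Tap1, Psmb8 and Tap2 lie above 0 and Psmb9 and H2-Bl below 0 in both panels.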

How the data were processed

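RNA sequencing of 8 libraries (75 bp single-end reads, per the labels' protocols) was summarised by the authors in 1 gene table with 6 pairwise comparisons of 4 groups, of which 4 were used. Per the submitters' processing notes, the tools were TopHat2 2.0.8 and Cufflinks 2.1.1 and the build mm10. The sources used here do not give the annotation or the strand setting. Expression was deposited as FPKM, 1 value per gene and group over 2 libraries, so library depth and spread are unknown. Each deposited test statistic (a score without fixed limits) served for standard errors. The deposited p-value and q-value were used as given, and the q-value matched Benjamini-Hochberg adjustment over the 78127 tests of all 6 comparisons within 5.21e-07.

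Folds were recomputed from the deposited FPKM, doxycycline over no doxycycline and transgenic over non-transgenic line. Genes were called at a deposited q under 0.05. Differences and medians used log2(FPKM + 1) for genes with a mean of 1 FPKM or more over the groups. Members described in full (26) were those called, the 3 most abundant of each role, and the 5 with the largest difference in each comparison. Members and lists were chosen with earlier results of these data known. The 75-base stretches were read from GENCODE vM21 transcripts and promoters from RefSeq (GRCm38.p6). Python 3.11.15, pandas 2.3.3, numpy 2.4.6 and scipy 1.17.1 were used. Samples were grouped by the clone and doxycycline labels.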

Additional observations from a re-analysis of the deposited data

How the results depend on the processing

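With Benjamini-Hochberg adjustment within each comparison alone, the members called stayed at 0 and 0 with doxycycline in transgenic and non-transgenic cells, and at 2 and 1 between the lines without and with doxycycline. With an unadjusted deposited p under 0.05 the line counts were 7 without doxycycline and 10 with it, and those with doxycycline in each line stayed at 0. With no filter on low values the members' median difference was -0.0302 with doxycycline in the non-transgenic line, 0.0551 between the lines without doxycycline and 0.0641 with it. With a filter at a mean of 5 FPKM the median between the lines without doxycycline was 0.0196, over 18 members in place of 35. A pseudocount of 0.1 FPKM moved 5 of 104 gene differences, those of Cxcl10 and H2-Bl, all in the same direction. Rescaling the groups to an equal sum of FPKM shifted the median of all genes by between -0.0389 and 0.0148 on the log2 scale and turned 3 values that were close to 0: Ifitm3 (0.00638) and Irf3 (0.0110) with doxycycline in the transgenic line, and Stat2 (-0.00417) between the lines with doxycycline. The cause was not tested. The test of the difference between responses called 0 members with standard errors from the deposited p as well. No paired analysis was possible because the deposited values combine both experiments, and for the same reason leaving out a library was not an option. Depth is unknown, so how far it limits the 14 members under 1 FPKM cannot be stated.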

Other observations

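Among genes of the MHC region with a symbol starting in H2-, none outside the members was called between the lines. Genes with other symbols were not sorted by whether they belong to class I. All 6 H2-Q genes with a mean of 1 FPKM or more were above 0 in both line comparisons, with medians of 0.32 without doxycycline and 0.40 with it on the log2(FPKM + 1) scale, where 59 and 69 of the region's 100 genes and 49.3% and 45.9% of all genes were above 0. Of the 5 H2-T entries, H2-T23 among them, 4 were above 0 in each comparison, and H2-T24 had a difference of -0.26 with doxycycline. H2-K2 was below 0 in both, at 1.08 and 1.25 FPKM with and without doxycycline in transgenic cells and at 1.12 and 1.33 FPKM in non-transgenic cells. H2-Q4, the most abundant H2-Q gene, stood at 19.2 and 22.2 FPKM with and without doxycycline in transgenic cells and at 15.6 and 18.2 FPKM in non-transgenic cells. With doxycycline, 6 of the 6 H2-Q entries at 1 FPKM or more were below 0 in transgenic cells and 5 of 6 in non-transgenic cells.

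Some genes near H2-Bl had wide differences between the lines, of both signs, and were chosen after their values were seen. Others did not, such as Gm6623, with differences of 0.02 without doxycycline and -0.03 with it. Gm8909 stood at 5.04 and 4.69 FPKM with and without doxycycline in transgenic cells and at 0.0308 and 0.137 FPKM in non-transgenic cells (p = 0.240 with and 0.0634 without doxycycline in the authors' deposited table). H2-T9 stood at 5.12 and 5.20 FPKM in transgenic cells and at 0.899 and 1.51 FPKM in non-transgenic cells (p = 0.0143 with and 0.134 without doxycycline in the authors' deposited table). Another entry at the same locus, named H2-T22 and H2-T9 together, differed less. It stood at 3.28 and 3.43 FPKM in transgenic cells and at 2.81 and 2.26 FPKM in non-transgenic cells (p = 0.723 with and 0.288 without doxycycline in the authors' deposited table). For 2410017I17Rik the values were 1.58 and 1.82 FPKM in transgenic cells, and 0 and 0.0243 FPKM in non-transgenic cells, and it was called with doxycycline (q = 0.00812 in the authors' deposited table). A930015D03Rik had the order of H2-Bl, at 1.35 and 1.61 FPKM in transgenic cells and at 4.37 and 4.15 FPKM in non-transgenic cells, and was not called. Ltb, which encodes the cytokine lymphotoxin beta, lies between the ends of the region. It stood at 23.3 and 20.2 FPKM in transgenic cells and at 3.85 and 4.94 FPKM in non-transgenic cells, and was called in both line comparisons (q = 0.00812 in each, in the authors' deposited table).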
